A study of Homo sapiens with 9 samples.

Results

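Transcripts of the genes that brake and drive the G1 kinases were followed in an oral cancer cell line given TGF-β1. The genes were taken by GENCODE 29 symbol as 3 CIP/KIP inhibitors (CDKN1A, CDKN1B, CDKN1C), 4 INK4 inhibitors (CDKN2A, CDKN2B, CDKN2C, CDKN2D) and 3 D cyclins (CCND1, CCND2, CCND3), 10 of 58233 gene identifiers. Gene positions are those of GENCODE 29 on GRCh38. All 10 were among the 15440 genes with enough counts to be tested. The line, UPCI-SCC-040, came from an oral squamous carcinoma of the tongue. Its 9 RNA-seq libraries form 3 groups of 3, namely controls without TGF-β1 and cells exposed to 5 ng/ml TGF-β1 over either 48 h or 72 h. Each group has 1 library from passage 12 (replicate 1), 1 from passage 13 (replicate 2) and 1 from passage 8 (replicate 3). Treated cells were in medium lacking serum and antibiotics, whereas the line was grown with 10% serum, and the labels do not say in which medium the controls were collected. The effects of TGF-β1, of serum withdrawal and of time in culture therefore cannot be told apart in the comparisons with control.

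D cyclins bind CDK4 or CDK6 and start the phosphorylation of the retinoblastoma protein family that lets a cell leave G1. INK4 proteins bind CDK4 and CDK6 and keep D cyclins from joining them, while CIP/KIP proteins inhibit kinases already joined to a cyclin, CDK2 with cyclin E or A above all. In epithelial cells TGF-β is known for arrest in G1, and induction of CDKN2B and CDKN1A through SMAD proteins is the textbook route.

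Promoter sequence is shown for 3 inhibitors that changed at both times, CDKN1A and CDKN2B upwards and CDKN1B downwards. Each run is the 250 bases before a RefSeq start on GRCh38.p14, read 5′ to 3′ on the gene's strand, with each GC box (GGGCGG, or CCGCCC on the other strand) in capitals. The CDKN1A window is chr6:36678464-36678713 on the plus strand, that of CDKN2B is chr9:22009306-22009555 on the minus strand, and that of CDKN1B is chr12:12717118-12717367 on the plus strand.
CDKN1A: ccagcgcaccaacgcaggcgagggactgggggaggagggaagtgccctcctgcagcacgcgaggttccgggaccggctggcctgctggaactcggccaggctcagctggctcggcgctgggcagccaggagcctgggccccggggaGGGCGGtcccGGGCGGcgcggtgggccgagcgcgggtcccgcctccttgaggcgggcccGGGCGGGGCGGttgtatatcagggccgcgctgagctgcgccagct
CDKN2B: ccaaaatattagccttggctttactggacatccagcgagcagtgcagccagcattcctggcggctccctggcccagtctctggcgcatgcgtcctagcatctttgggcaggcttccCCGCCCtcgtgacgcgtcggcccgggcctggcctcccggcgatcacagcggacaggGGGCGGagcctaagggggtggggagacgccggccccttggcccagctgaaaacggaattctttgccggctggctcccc
CDKN1B: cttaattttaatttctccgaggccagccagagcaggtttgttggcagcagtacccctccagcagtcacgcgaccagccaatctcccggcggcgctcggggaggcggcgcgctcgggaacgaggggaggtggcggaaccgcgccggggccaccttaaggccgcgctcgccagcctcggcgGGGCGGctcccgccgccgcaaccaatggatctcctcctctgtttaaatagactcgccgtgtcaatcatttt
The CDKN1A window held 4 GC boxes, which start between 104 and 40 bases before the start site, and the last pair overlap. CDKN2B had 2, at 134 and 78 bases, and CDKN1B had 1, at 71 bases. RefSeq promoters were at hand for 7 of the 10 genes, with 12 windows because some genes have several starts, and 9 of the 12 held a GC box, against 42.6% of 35116 human windows of that length. The SMAD box CAGAC was in 3 of the 12 windows (38.0% of all windows), the E-box CACGTG in 2 (6.34%), the AP-1 site TGACTCA in 0 (4.2%) and the forkhead motif GTAAACA in 0 (2.98%), each searched on both strands. None of the 3 windows printed holds CAGAC. These matches describe letters, not bound sites.

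Library totals ran from 12544690 to 20438727 counts. Levels are given as CPM, counts scaled by TMM-adjusted library size, and as CPM per kilobase of the longest transcript (RPKM) where genes are set against each other. Controls resembled each other closely (Pearson correlation across genes 0.989 to 0.990), 48 h libraries less so (0.970 to 0.982), and the 72 h library of passage 8 stood apart from the other two 72 h libraries (0.955 and 0.951, against 0.984 between those). Results at 72 h are therefore also given without that library. The 7 squamous epithelial markers were all detected, and their summed level was 9577 to 17827 CPM in controls, 20815 to 27024 CPM at 48 h and 13322 to 21833 CPM at 72 h. Summed levels did not pass 0.989 CPM for 5 fibroblast markers, 0.287 CPM for 4 immune markers and 2.66 CPM for 3 endothelial markers. KRT14 and KRT17 were called higher at 48 h, and KRT14 higher and EPCAM lower at 72 h; the part of these markers in the results was not tested. SMAD7 and SKIL, target genes of SMAD proteins, were called higher at both times, with log2 fold changes of 0.65 to 1.11. However, the 72 h call of SKIL was lost without control 1 (adjusted p = 0.077, edgeR) or control 3 (0.0786). With replicate 1 left out of all groups, SKIL was called neither at 48 h (0.93, adjusted p = 0.0928, edgeR) nor at 72 h (0.59, 0.166). The p-values measure the spread between these libraries, which come from passages of 1 line. In bulk RNA, a change in the number of cells with a transcript and a change in RNA per cell cannot be told apart.

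At 48 h of TGF-β1 3 of the 10 genes rose, CDKN1A, CDKN1C and CDKN2B, where 14.9% of all tested genes were called higher by edgeR's quasi-likelihood test (Benjamini-Hochberg adjusted p under 0.05). Another 3 fell, CDKN1B, CDKN2D and CCND2, against 16.0% of all tested genes called lower. At 72 h the same 3 rose (20.4% of all genes were called higher) and 4 fell, the 3 of 48 h and CDKN2C (19.4% called lower). All 3 libraries of a treated group lay above all 3 controls for 3 of the 10 genes at 48 h (25.6% of all genes) and 3 at 72 h (27.3%). They lay below all controls for 4 at 48 h (28.1%) and 4 at 72 h (27.7%). Both comparisons use the same controls and are not independent. Changes went in opposite directions within the set, and its median log2 fold change was -0.07 at 48 h and -0.01 at 72 h, against 0.0 and 0.03 over all tested genes. Without the 72 h library of passage 8, the counts at 72 h were again 3 higher and 4 lower, and those at 48 h became 3 higher and 4 lower, since CDKN2C passed the threshold.

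**Figure D1:**
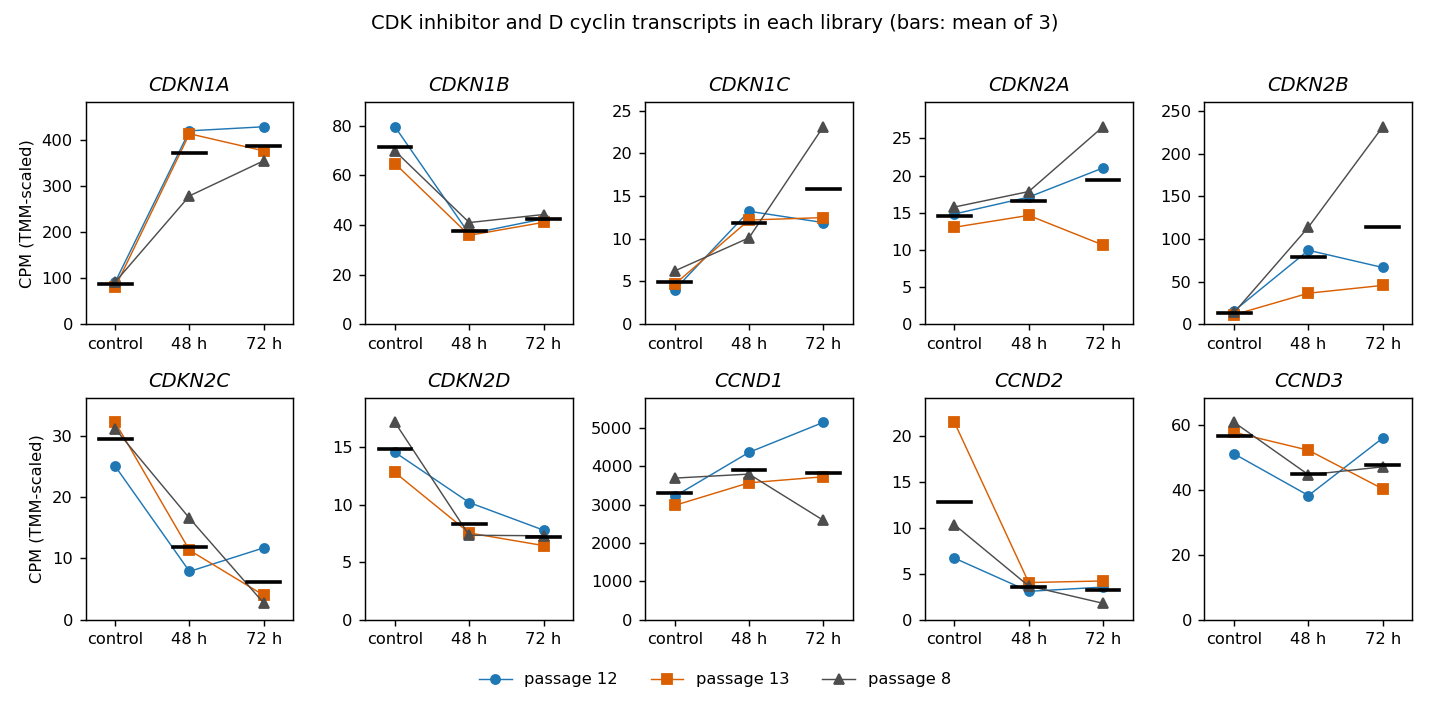
TMM-scaled CPM (y axis, linear, from 0) of the 10 genes in each library, by group (x axis), with a line joining the libraries of one passage and a black bar at the mean of 3. CDKN1A, CDKN1C and CDKN2B lie above every control in all 6 treated libraries, and CDKN1B, CDKN2C, CDKN2D and CCND2 below every control.

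Among the CIP/KIP inhibitors the balance shifted further towards CDKN1A, which already exceeded CDKN1B in controls. CDKN1A (ENSG00000124762, chr6:36676460-36687339, plus strand) encodes p21, which blocks cyclin E-CDK2 and, through its PCNA-binding tail, DNA replication. Its level was 91.8, 80.7 and 91.7 CPM in controls of replicates 1 to 3, 420.2, 414 and 279 CPM at 48 h, and 429, 377 and 355 CPM at 72 h. Every treated library exceeded every control by more than the whole spread of either group. The log2 fold change was 2.07 ± 0.18 (SE) at 48 h, a 4.21-fold difference (adjusted p = 0.000318, edgeR), and 2.14 ± 0.18 at 72 h (4.39-fold, adjusted p = 0.000184). The 72 h value was 2.20 (adjusted p = 8.99e-05) without the 72 h library of passage 8. Within passages 12, 13 and 8 the log2 ratio at 48 h was 2.19, 2.36 and 1.60, and at 72 h 2.22, 2.22 and 1.95, so passage 8 had the smallest rise at either time.

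CDKN1B (ENSG00000111276, chr12:12715058-12722371, plus strand) encodes p27, the inhibitor that holds cyclin E-CDK2 in resting cells and is controlled largely by ubiquitin-dependent turnover. Its transcript went the other way, with 79.6, 64.8 and 69.9 CPM in controls, 36.4, 35.8 and 41.0 CPM at 48 h and 42.5, 41.1 and 44.2 CPM at 72 h. The treated libraries were tightly grouped and all below the controls. On the log2 scale the change was -0.92 ± 0.12 at 48 h (adjusted p = 0.00103, edgeR) and -0.75 ± 0.12 at 72 h (adjusted p = 0.00147), or -0.77 without the 72 h library of passage 8. In passages 12, 13 and 8 it was -1.13, -0.85 and -0.77 at 48 h and -0.90, -0.66 and -0.66 at 72 h. All 3 libraries at 72 h were above all 3 at 48 h, but the difference of 0.18 ± 0.12 did not pass the test (adjusted p = 0.650, edgeR).

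CDKN1C (ENSG00000129757, chr11:2883213-2885773, minus strand) encodes p57, a CIP/KIP protein from the imprinted cluster on 11p15 that is mainly known from differentiating tissues. Per transcript length it was the scarcest of the 3 in all groups. It had 4.04, 4.67 and 6.23 CPM in controls, 13.2, 12.2 and 10.1 CPM at 48 h and 11.9, 12.5 and 23.1 CPM at 72 h. Treated libraries were again all above controls, and the 72 h library of passage 8 was the highest of the 9. On the log2 scale the change was 1.25 ± 0.29 at 48 h (2.39-fold, adjusted p = 0.0103, edgeR) and 1.67 ± 0.29 at 72 h (3.18-fold, adjusted p = 0.00222). Without the 72 h library of passage 8 the 72 h value was 1.30 (adjusted p = 0.00144). The 48 h call was lost when replicate 1 (1.04, adjusted p = 0.125) or replicate 2 (1.21, adjusted p = 0.0942) was left out of all groups. Passages 12, 13 and 8 had log2 ratios of 1.68, 1.36 and 0.69 at 48 h, and 1.53, 1.39 and 1.87 at 72 h.

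A ratio taken within each library does not depend on how libraries were scaled to each other. There were 1.15, 1.25 and 1.31 CDKN1A counts for each CDKN1B count in controls, 11.5, 11.5 and 6.80 at 48 h, and 10.1, 9.17 and 8.03 at 72 h. The lowest ratio at either time was above the highest in controls. Per transcript length, CDKN1A made up 56.9% ± 1.02 (SD, n = 3) of the CIP/KIP level in controls, 88.6% ± 2.60 at 48 h and 87.5% ± 2.59 at 72 h. CDKN1B made up 39.3% ± 1.88, 8.02% ± 2.36 and 8.26% ± 0.71 in the same order. The summed CIP/KIP level was 68.3 ± 5.27, 184 ± 35.0 and 195 ± 14.3 RPKM. CDKN1C held 3.78%, 3.35% and 4.26% of it, so its share stayed small while its level rose.

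**Figure D2:**
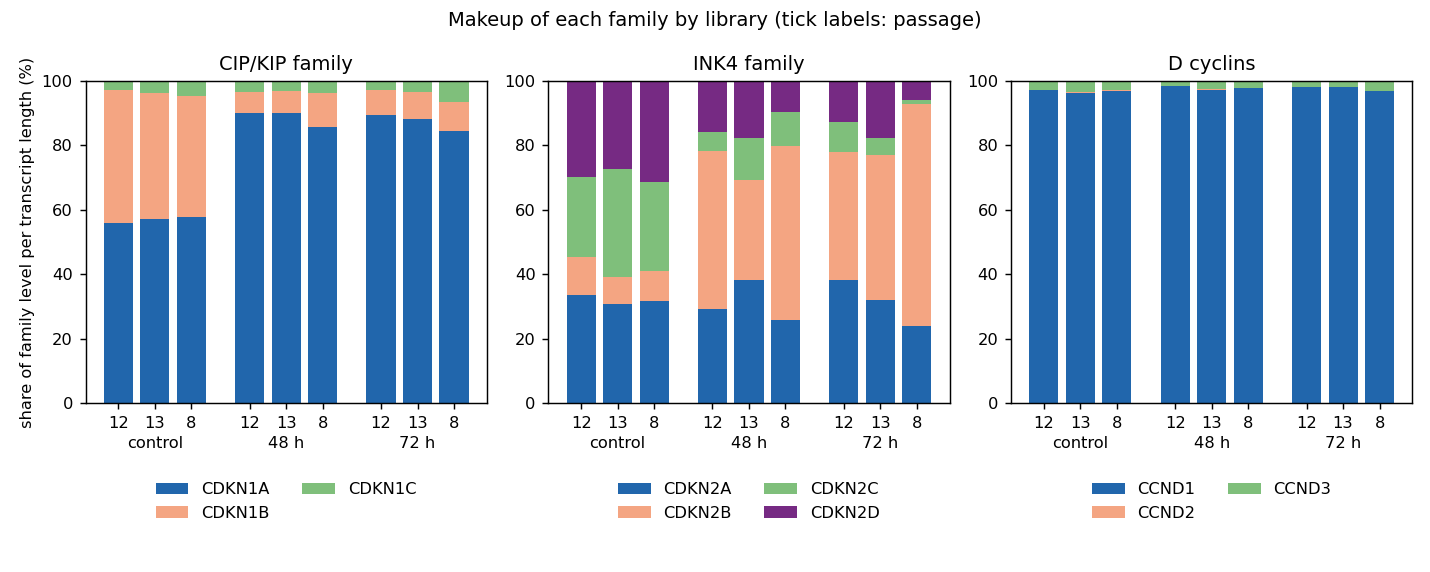
Share of each gene in the summed level of its family (y axis, percent of CPM per kilobase of the longest transcript) in each of the 9 libraries, with passages on the x axis within each group. CDKN1A takes 84.6% or more of the CIP/KIP level in every treated library, CDKN2B widens within the INK4 family, and CCND1 fills at least 96.2% of the D cyclin bar in every library.

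The INK4 family also changed its makeup, with CDKN2B up, CDKN2C and CDKN2D down and CDKN2A between them. CDKN2B (ENSG00000147883, chr9:22002903-22009363, minus strand) encodes p15, the INK4 protein first known as a TGF-β-induced inhibitor of CDK4 and CDK6. It stood at 15.7, 11.1 and 13.8 CPM in controls, 86.6, 36.3 and 114 CPM at 48 h, and 66.5, 45.5 and 231 CPM at 72 h. All treated libraries were above all controls, and the treated libraries differed widely, with passage 13 lowest and passage 8 highest at both times. The log2 fold change was 2.54 ± 0.66 at 48 h (5.83-fold, adjusted p = 0.021, edgeR) and 3.08 ± 0.67 at 72 h (8.45-fold, adjusted p = 0.00799). Leaving out the 72 h library of passage 8 gave 2.05 at 72 h (adjusted p = 0.00784). The 48 h call was lost without any 1 control (adjusted p 0.061, 0.0775 and 0.0662) or without 48 h replicate 1 or 3 (0.056 and 0.055). With replicate 1 left out of all groups both calls were lost, at 2.59 at 48 h (adjusted p = 0.138) and 3.47 at 72 h (adjusted p = 0.053). It was also lost with no filter on low counts (adjusted p = 0.0899), while the log2 fold change stayed between 2.19 and 2.89 in all 19 alternatives. Within passages 12, 13 and 8 the log2 ratio was 2.45, 1.70 and 3.04 at 48 h and 2.07, 2.02 and 4.06 at 72 h.

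CDKN2A (ENSG00000147889, chr9:21967753-21995301, minus strand) encodes p16 and, from a second start and another reading frame, p14ARF, and gene counts add the 2 transcripts together. Its level was 14.8, 13.0 and 15.8 CPM in controls, 17.1, 14.6 and 17.9 CPM at 48 h, and 21.0, 10.7 and 26.6 CPM at 72 h. The groups overlapped at both times, and at 72 h passage 13 lay below its control while passages 12 and 8 lay above theirs. The log2 value was 0.18 at 48 h (95% interval -0.50 to 0.87, adjusted p = 0.647, edgeR) and 0.42 at 72 h (-0.26 to 1.10, adjusted p = 0.254). Without 72 h replicate 2 the 72 h value was 0.71 and passed the test (adjusted p = 0.013), and without 72 h replicate 3 it was 0.13 (adjusted p = 0.712). CDKN2B lies next to CDKN2A on chromosome 9, and the antisense RNA CDKN2B-AS1 overlaps this locus. CDKN2B-AS1 had 331 counts in all 9 libraries together, rose at 48 h (log2 fold change 1.61 ± 0.41, adjusted p = 0.0164, edgeR), and was at 1.10 ± 0.41 at 72 h (adjusted p = 0.0576). The 48 h call was lost without control 2 (adjusted p = 0.0624) or 3 (0.0625), and at 72 h it passed with the passages as a block (1.12, adjusted p = 0.0373), with DESeq2 (0.0389) and without control 1 (1.68, adjusted p = 0.0164). The strand setting of the counting is not given in the sources used here, so reads of CDKN2B-AS1 cannot be told apart from those of its partners if strand was ignored. CDKN2B had 10109 counts and CDKN2A 2500.

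CDKN2C (ENSG00000123080, chr1:50960745-50974633, plus strand) encodes p18, an INK4 protein whose transcript is known to climb as cycling cells pass through S phase. It was 25.0, 32.2 and 31.1 CPM in controls, 7.88, 11.3 and 16.5 CPM at 48 h, and 11.7, 3.99 and 2.72 CPM at 72 h. All treated libraries were below all controls, but passages did not keep 1 order, since passage 12 was lowest of its group at 48 h and highest at 72 h. At 48 h the log2 value was -1.31 ± 0.49 and did not pass the test (adjusted p = 0.0701, edgeR), although it passed with DESeq2 (adjusted p = 0.0253), in a fit of only the 2 groups (0.00386), and without 72 h replicate 1 (0.0074) or 3 (0.0248). At 72 h it fell by 2.25 ± 0.50 (adjusted p = 0.00833), which is -1.90 without the 72 h library of passage 8 (adjusted p = 0.0121) and -3.13 without that of passage 12 (adjusted p = 0.000502). The 72 h call was lost with no filter on low counts (adjusted p = 0.0576) and when replicate 2 was left out of all groups (-1.94, adjusted p = 0.101). Passages 12, 13 and 8 had log2 ratios of -1.65, -1.49 and -0.91 at 48 h, and -1.09, -2.97 and -3.46 at 72 h.

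CDKN2D (ENSG00000129355, chr19:10566462-10569059, minus strand) encodes p19, an INK4 protein found in many tissues. Its values were 14.5, 12.8 and 17.1 CPM in controls, 10.2, 7.54 and 7.34 CPM at 48 h, and 7.78, 6.44 and 7.29 CPM at 72 h. The decrease was shared by all 3 passages at both times, and no treated library reached a control. On the log2 scale the change was -0.82 ± 0.19 at 48 h (adjusted p = 0.0113, edgeR) and -1.04 ± 0.19 at 72 h (2.06-fold, adjusted p = 0.00297), or -1.05 without the 72 h library of passage 8. The 48 h call was lost without control 3 (-0.71, adjusted p = 0.0509) and when any replicate number was left out of all groups (adjusted p 0.0673, 0.0843 and 0.0722). Taken by passage (12, 13 and 8), the log2 ratio was -0.51, -0.75 and -1.21 at 48 h and -0.89, -0.98 and -1.22 at 72 h.

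Per transcript length, CDKN2B held 9.80% ± 1.66 (SD, n = 3) of the INK4 level in controls, 44.6% ± 12.0 at 48 h and 51.2% ± 15.6 at 72 h. CDKN2C held 28.8% ± 4.31, 9.87% ± 3.59 and 5.27% ± 4.16 in that order, and CDKN2D 29.4% ± 2.05, 14.4% ± 4.26 and 12.1% ± 5.81. CDKN2A had similar mean shares, 32.1% ± 1.43, 31.1% ± 6.35 and 31.5% ± 7.08, but treated libraries scattered to both sides of the controls. At 72 h its share was 38.2%, 32.1% and 24.1% in replicates 1 to 3. This share also depends on the length used. With the union of all annotated exons, which is much longer than any 1 transcript of CDKN2A, its share was 13.2%, 12.5% and 12.7%, and that of CDKN2B was 13.2%, 57.3% and 65.3%. The summed INK4 level was 35.4 ± 2.86, 43.0 ± 12.2 and 51.6 ± 31.0 RPKM, and the treated ranges overlapped that of the controls.

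**Figure D3:**
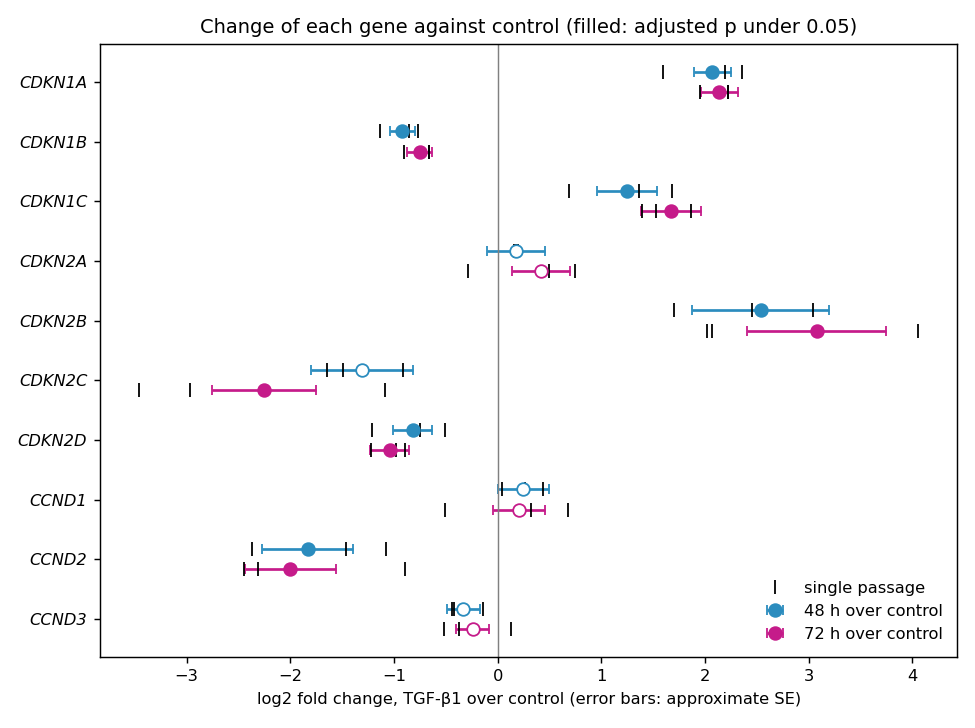
Log2 fold change of each gene against control at 48 h (upper point of each pair) and 72 h (lower point), with approximate SE as bars, filled where the adjusted p was under 0.05 and with black ticks for the ratio within each passage. CDKN1A, CDKN1C and CDKN2B lie to the right of 0 at both times, and CDKN2B and CDKN2C at 72 h show the widest scatter of passages.

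Of the D cyclins, only CCND2 passed the test, and the family remained almost wholly CCND1. CCND1 (ENSG00000110092, chr11:69641087-69654474, plus strand) encodes cyclin D1, a well-known oncogene of squamous carcinoma that is often amplified with its neighbours on 11q13. It was among the most abundant transcripts of the line, with 3214, 2978 and 3688 CPM in controls, 4358, 3565 and 3792 CPM at 48 h and 5138, 3722 and 2591 CPM at 72 h. Ranges overlapped, and at 72 h passage 12 was the highest and passage 8 the lowest of all 9 libraries. The log2 value was 0.25 at 48 h (95% interval -0.37 to 0.86, adjusted p = 0.486, edgeR) and 0.21 at 72 h (-0.40 to 0.83, adjusted p = 0.520). It was -0.06 at 72 h without 72 h replicate 1 and 0.43 without replicate 3 (adjusted p = 0.119). Within passages 12, 13 and 8 the log2 ratio was 0.44, 0.26 and 0.04 at 48 h, and 0.68, 0.32 and -0.51 at 72 h. By mean RPKM, CCND1 ranked 37 of 15440 tested genes in controls, 22 at 48 h and 26 at 72 h.

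CCND2 (ENSG00000118971, chr12:4273772-4305350, plus strand) encodes cyclin D2. It was 6.69, 21.4 and 10.3 CPM in controls, 3.09, 4.04 and 3.67 CPM at 48 h, and 3.55, 4.22 and 1.79 CPM at 72 h. Treated libraries were all below the lowest control, and the controls differed from each other more than the treated libraries did. The log2 fold change was -1.83 ± 0.44 at 48 h (3.57-fold, adjusted p = 0.0135, edgeR) and -2.00 ± 0.44 at 72 h (4.01-fold, adjusted p = 0.00687), or -1.72 without the 72 h library of passage 8 (adjusted p = 0.0154). Control 2 had the highest level. Without it the log2 value was -1.24 at 48 h (adjusted p = 0.0511) and -1.41 at 72 h (adjusted p = 0.0251), and the 48 h call was also lost without 48 h replicate 1 (-1.73, adjusted p = 0.0586) or without all of replicate 1 (0.0695) or 2 (0.0936). Taken by passage (12, 13 and 8), the log2 ratio was -1.08, -2.37 and -1.46 at 48 h and -0.89, -2.31 and -2.45 at 72 h.

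CCND3 (ENSG00000112576, chr6:41934933-42050357, minus strand) encodes cyclin D3. It was 51.2, 57.8 and 60.9 CPM in controls, 38.4, 52.3 and 44.7 CPM at 48 h, and 56.1, 40.4 and 47.2 CPM at 72 h. Passage 13 at 48 h and passage 12 at 72 h fell inside the control range, so the groups overlapped. The log2 value was -0.33 at 48 h (95% interval -0.72 to 0.06, adjusted p = 0.142, edgeR) and -0.24 at 72 h (-0.63 to 0.15, adjusted p = 0.246), or -0.23 without the 72 h library of passage 8. Passages 12, 13 and 8 had log2 ratios of -0.42, -0.14 and -0.44 at 48 h and 0.13, -0.52 and -0.37 at 72 h.

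Per transcript length CCND1 held 96.7% ± 0.485 of the D cyclin level in controls, 97.9% ± 0.520 at 48 h and 97.6% ± 0.715 at 72 h (SD, n = 3). CCND3 held 3.01%, 2.07% and 2.34%, and CCND2 0.258%, 0.0609% and 0.0544%. The summed D cyclin level was 790.3 ± 84.3 RPKM in controls, 926 ± 92.0 at 48 h and 907 ± 298 at 72 h. The antisense gene LTO1 overlaps the 3′ end of CCND1 and was called lower at both times (log2 fold change -0.54 and -0.45, adjusted p = 0.0192 and 0.0306, edgeR), and its reads cannot be told apart from those of CCND1 if strand was ignored. Both LTO1 calls were lost without control 3 (-0.40 and -0.31, adjusted p = 0.0781 and 0.127) and without some other single libraries. LTO1 had 30051 counts in all, against 550748 for CCND1.

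Ordered by RPKM, the 10 genes ran in controls as CCND1 (765), CDKN1A (38.8), CDKN1B (26.9), CCND3 (23.7), CDKN2A (11.3), CDKN2D (10.4), CDKN2C (10.1), CDKN2B (3.46), CDKN1C (2.57) and CCND2 (1.98). Libraries of neighbours in this order overlapped between CDKN1B and CCND3, along the run from CDKN2A through CDKN2D to CDKN2C, and along that from CDKN2B through CDKN1C to CCND2. At 48 h CDKN2B took the third place, with 20.2 ± 10.1 RPKM, and at 72 h again the third, with 29.3 ± 26.0 RPKM, its libraries overlapping those of CCND3 both times. CCND1 and CDKN1A kept the first and second places in all 3 groups, apart from their neighbours.

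No gene of the set was called between 72 h and 48 h. Nor was any of the 15440 tested genes by edgeR, so the background was 0.0% higher and 0.0% lower, while 1382 had an unadjusted p under 0.05. DESeq2 called 39 genes and edgeR with no filter on low counts called 211, with none of the 10 among them. Log2 differences ran from -0.94 (95% interval -2.16 to 0.27) for CDKN2C to 0.54 (-0.96 to 2.03) for CDKN2B, and such intervals leave room for differences of more than 2-fold. Without the 72 h library of passage 8, CDKN2B was at -0.49 and CDKN2A at -0.06, below 0 instead of above it.

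Kinases and cyclins that work with these proteins were called in 1 direction. In this and the other lists of related genes, each change is a log2 fold change ± SE against control, for 48 h and then for 72 h. Of the calls given for partner, regulator and neighbour genes other than GSK3B and RNF123, 14 of 20 at 48 h and 5 of 21 at 72 h were lost with replicate 1 left out of all groups, 19 and 13 without replicate 2, and 5 and 3 without replicate 3. Of 12 listed kinases and cyclins 11 were tested, 0 were called higher at either time (14.9% of all tested genes at 48 h and 20.4% at 72 h), and 4 were called lower at 48 h and 7 at 72 h (16.0% and 19.4% of all tested genes), with 7 and 8 lower when the 72 h library of passage 8 was left out. The median log2 fold change of the list was -0.74 at 48 h and -0.95 at 72 h, against 0.0 and 0.03 over all tested genes. CDK4, the main partner of D cyclins beside CDK6, was 83.6, 97.1 and 85.0 CPM in controls, 43.4, 49.3 and 33.4 CPM at 48 h and 59.5, 47.6 and 30.5 CPM at 72 h. It was lower in every treated library, with log2 fold changes of -1.07 ± 0.23 (adjusted p = 0.00822, edgeR) and -0.95 ± 0.23 (adjusted p = 0.00998). The CDK4 call was lost at 48 h with replicate 1 (adjusted p = 0.0676) or 2 (0.0822) left out of all groups, and at 72 h with replicate 2 left out (0.0981). CDK6 was at -0.19 ± 0.19 at 48 h (adjusted p = 0.476) and fell by 0.59 ± 0.19 at 72 h (adjusted p = 0.0355). The CDK6 call was lost without any 1 control or without 72 h replicate 2 or 3 (adjusted p 0.0691 to 0.121), and without 48 h replicate 1 (0.052). The summed level of both kinases was 117 ± 5.76 RPKM in controls, 85.2 ± 16.8 at 48 h and 71.5 ± 15.5 at 72 h, and CDK6 exceeded CDK4 per transcript length in all 9 libraries (1.75 ± 0.265, 3.21 ± 0.295 and 2.32 ± 0.384 times in the 3 groups).

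CCNA2, the S phase cyclin of CDK2, fell by 1.81 ± 0.44 at 48 h and 2.66 ± 0.45 at 72 h on the log2 scale (adjusted p = 0.0157 and 0.00281, edgeR). CDC25A, the phosphatase that activates CDK2, fell by 1.73 ± 0.40 and 2.05 ± 0.41 (adjusted p = 0.0134 and 0.00521). CDK1, the mitotic kinase, was at -1.18 ± 0.42 at 48 h (adjusted p = 0.0598) and fell by 2.10 ± 0.43 at 72 h (adjusted p = 0.00562). CDK2 itself was at -0.74 ± 0.35 and -0.99 ± 0.35 (adjusted p = 0.137 and 0.0507), which did not pass the test at either time although all treated libraries were below all controls. The 48 h calls of CCNA2 and CDC25A were lost without 48 h replicate 1 (adjusted p = 0.0607 and 0.0568, edgeR) and with no filter on low counts (0.0971 and 0.0622). Without the 72 h library of passage 8, CDK1 and CDK2 passed at 48 h (adjusted p = 0.00602 and 0.0166), and CDK2 passed at 72 h (-0.66, adjusted p = 0.0477). With the passages as a block CDK2 also passed at 72 h (-1.10, adjusted p = 0.0326), as it did with DESeq2 (0.0248).

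The pocket proteins, which these kinases phosphorylate, did not move as a group. RBL1, encoding p107, fell by 1.30 ± 0.28 at 48 h and 1.47 ± 0.28 at 72 h (adjusted p = 0.00919 and 0.00419, edgeR). RBL2, encoding p130, the pocket protein of resting cells, rose by 0.48 ± 0.15 at 48 h (adjusted p = 0.0384) and was at 0.35 ± 0.15 at 72 h (adjusted p = 0.0894). The 48 h call of RBL2 was lost without any 1 control or 48 h library (adjusted p 0.0651 to 0.142), and at 72 h RBL2 passed without 72 h replicate 1 (0.50, adjusted p = 0.0165). RB1 was at -0.11 ± 0.13 and -0.29 ± 0.13 (adjusted p = 0.537 and 0.0944).

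Among 14 genes for the turnover of these proteins, 5 were called lower and 1 higher at 48 h, and 4 lower and 2 higher at 72 h. The shares of all tested genes were 16.0% lower and 14.9% higher at 48 h, and 19.4% and 20.4% at 72 h. The median log2 fold change of the list was -0.27 at 48 h and -0.13 at 72 h. The count called higher was 1 at 72 h with the passages as a block, and without the 72 h library of passage 8 it was 2 at 48 h and 1 at 72 h. SKP2, the ubiquitin ligase subunit that marks p27 for destruction, fell by 0.86 ± 0.26 and 1.11 ± 0.26 (adjusted p = 0.0306 and 0.00867, edgeR). CKS1B, its cofactor for p27, fell by 0.95 ± 0.21 and 1.35 ± 0.21 (adjusted p = 0.00898 and 0.00142). DTL, the subunit that directs another ligase to p21, fell by 1.88 ± 0.50 and 2.28 ± 0.51 (adjusted p = 0.0236 and 0.00885). UBAC1, part of a ligase that acts on p27 early in G1, fell by 0.43 ± 0.10 and 0.56 ± 0.10 (adjusted p = 0.0122 and 0.0027). GSK3B and RNF123, of the same list, went the other way. GSK3B rose by 0.43 ± 0.11 and 0.33 ± 0.11 (adjusted p = 0.0166 and 0.0362, edgeR). RNF123 was at 0.42 ± 0.15 at 48 h (adjusted p = 0.0512) and rose by 0.50 ± 0.15 at 72 h (adjusted p = 0.0209). Without the 72 h library of passage 8, GSK3B was not called at 72 h (adjusted p = 0.0598) and RNF123 passed at 48 h (0.0355). At 48 h the calls of SKP2 and DTL were lost without any 1 control (adjusted p 0.0746 to 0.0848 and 0.0564 to 0.0673, edgeR) and without some single 48 h libraries, and that of UBAC1 without control 3 (0.0542). With no filter on low counts DTL passed at neither time (adjusted p = 0.127 and 0.0605). Protein levels were not measured.

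**Figure D4:**
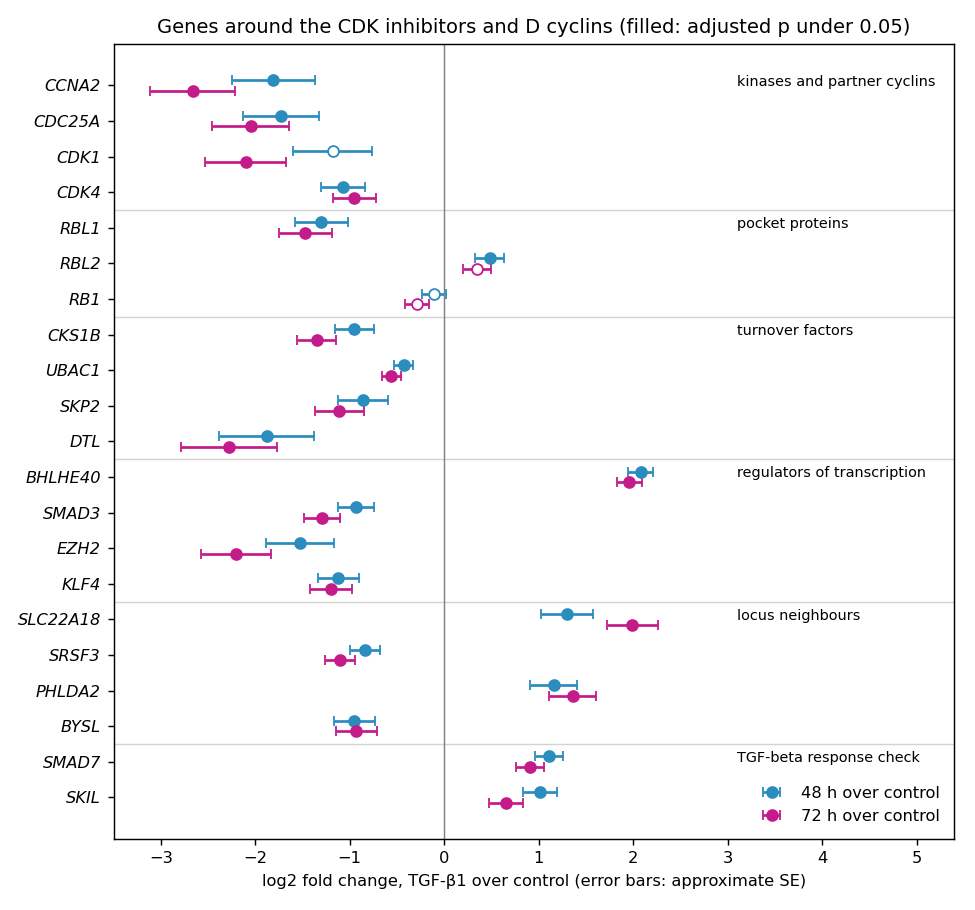
Log2 fold change against control at 48 h and 72 h (x axis, approximate SE as bars, filled where the adjusted p was under 0.05) of the genes named from each of 6 lists. The cyclin, kinase and turnover genes shown lie to the left of 0, while RBL2, BHLHE40, the CDKN1C neighbours SLC22A18 and PHLDA2 and the SMAD targets SMAD7 and SKIL lie to the right.

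Of 18 transcription and chromatin regulators known to act on these genes, 3 were called higher and 3 lower at 48 h, and 5 in each direction at 72 h, against the shares over all tested genes (14.9% higher and 16.0% lower at 48 h, 20.4% and 19.4% at 72 h). The list's median log2 fold change was 0.06 and 0.02. Without the 72 h library of passage 8 these counts were 3 and 5 at 48 h and 4 and 5 at 72 h. BHLHE40, a transcriptional repressor induced by TGF-β, was 34.5, 28.1 and 26.7 CPM in controls, 122, 123 and 135 CPM at 48 h, and 120.2, 113 and 114 CPM at 72 h. The treated libraries of each time lay close together and far above the controls, and the log2 fold change was 2.08 ± 0.13 and 1.96 ± 0.13 (adjusted p = 4.2e-05 and 6.3e-05, edgeR). EZH2, the methyltransferase that silences the INK4 locus in cycling cells, fell by 1.53 ± 0.36 and 2.20 ± 0.37 (adjusted p = 0.014 and 0.0026). The 48 h call of EZH2 was lost without 48 h replicate 1 (adjusted p = 0.0574). SMAD3, the signal carrier of TGF-β itself, fell by 0.93 ± 0.19 and 1.29 ± 0.19 (adjusted p = 0.00653 and 0.00118). KLF4, a zinc finger factor known to activate CDKN1A, fell by 1.12 ± 0.22 and 1.20 ± 0.22 (adjusted p = 0.00543 and 0.00288). MYC, a repressor of CDKN2B and CDKN1A, was at -0.73 ± 0.55 and -0.97 ± 0.56 (adjusted p = 0.348 and 0.195). All treated libraries were below all controls for MYC at both times. At 48 h MYC passed without the 72 h library of passage 8 (-0.73, adjusted p = 0.0233, edgeR) and in a fit of only the 2 groups (-0.69, 0.0378). Without that library it did not pass at 72 h (-0.50, adjusted p = 0.135).

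Genes beside the 10 loci give a view of their chromosomal surroundings. Of 31 symbols listed 29 were found and 24 tested, with 4 called higher and 5 lower at 48 h and 2 higher and 5 lower at 72 h (4 higher with the passages as a block). The symbols not found, ORAOV1 and C12orf5, are older names of LTO1 and TIGAR, which were found. The shares over all tested genes were 14.9% higher and 16.0% lower at 48 h and 20.4% and 19.4% at 72 h, and the list's median log2 fold change was -0.03 and -0.04. Without the 72 h library of passage 8, 6 were higher and 7 lower at 48 h. Both genes called higher at 72 h lie near CDKN1C in the imprinted cluster on chromosome 11. SLC22A18, 13.9 kb from CDKN1C, had 2.23, 2.26 and 2.44 CPM in controls, 5.09, 6.56 and 5.38 CPM at 48 h, and 6.43, 8.60 and 12.5 CPM at 72 h. Its log2 fold change was 1.30 ± 0.27 at 48 h (adjusted p = 0.00689, edgeR) and 1.99 ± 0.27 at 72 h (adjusted p = 0.00081), and the 72 h library of passage 8 was again the highest. PHLDA2, 42.5 kb away, rose by 1.16 ± 0.25 and 1.36 ± 0.25 (adjusted p = 0.00839 and 0.0031). KCNQ1OT1, the long RNA that controls the cluster's imprint, was at 0.58 ± 0.26 and 0.71 ± 0.26 (adjusted p = 0.111 and 0.0524). At 72 h KCNQ1OT1 passed with DESeq2 (0.70, adjusted p = 0.0374), and in edgeR with DESeq2 size factors (0.0494) or upper-quartile factors (0.0409). Without the 72 h library of passage 8 it passed at 48 h (0.59, adjusted p = 0.048, edgeR) but not at 72 h (0.45, adjusted p = 0.158). Elsewhere some neighbours fell beside a gene that fell and others did not. TIGAR, 2.41 kb from CCND2, was at -0.06 ± 0.15 and -0.21 ± 0.15 (adjusted p = 0.779 and 0.288, edgeR). AP1M2, 3.61 kb from CDKN2D, was at 0.24 ± 0.12 and 0.30 ± 0.12 (0.152 and 0.0714). Beside CDKN1B, APOLD1 (3.55 kb) was at 0.20 ± 0.28 and 0.31 ± 0.28 (0.62 and 0.397). The scarce GPR19 (18.9 kb) was at -1.05 ± 0.44 and -1.14 ± 0.44 (0.0956 and 0.0613). FAF1, 0.482 kb from CDKN2C, fell by 0.66 ± 0.18 at 48 h and 0.72 ± 0.18 at 72 h (adjusted p = 0.0226 and 0.0122, edgeR), the first of which was lost without any 1 control (0.052 to 0.0718). PARP11, 400.0 kb from CCND2, was at -0.39 ± 0.20 at 48 h (adjusted p = 0.164) and fell by 0.68 ± 0.20 at 72 h (0.0224). The PARP11 call was lost without control 1 (0.0671) or 2 (0.0934). It was also lost without the 72 h library of passage 8 (-0.59, adjusted p = 0.0515, edgeR). SRSF3, a splicing factor gene 70.9 kb from CDKN1A, fell by 0.84 ± 0.16 and 1.10 ± 0.16 (adjusted p = 0.0054 and 0.0012), and BYSL, a ribosome assembly gene 1.89 kb from CCND3, fell by 0.95 ± 0.22 and 0.93 ± 0.22 (adjusted p = 0.0104 and 0.0083). MTAP, 30.1 kb from CDKN2A, was at -0.13 ± 0.23 and -0.44 ± 0.23 (adjusted p = 0.688 and 0.147).

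On the CCND1 side of chromosome 11, the listed genes CTTN, ANO1 and PPFIA1 were singled out after their values were seen. By mean RPKM in controls CTTN ranked 34, ANO1 213 and PPFIA1 449 of the 15440 tested genes, beside rank 37 for CCND1. FADD, in the same stretch, ranked 1342, and FGF4 and FGF3 had 4 and 3 counts in all 9 libraries. Copy number was not measured.

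For each gene of the set that passed a test, the 3 protein-coding genes with the closest course over the 9 libraries were found by the root mean square difference of log2 CPM, each centred on its own mean, among 12686 genes. For CDKN1A these were IL11 (0.141), SBF1 (0.161) and MXRA8 (0.166). This difference is not scaled to how much a gene varies, so its size does not rank the matches of one member against those of another. CDKN1B was followed by C2CD5 (0.0863), POLR3C (0.0892) and TRIM68 (0.0905). For CDKN1C they were PRRG2 (0.140), TBKBP1 (0.143) and ZNF862 (0.155). CDKN2B had OAS3 (0.134), PARP9 (0.182) and IFI35 (0.201). CDKN2C had CENPA (0.152), ESCO2 (0.178) and BUB1 (0.180), and CDKN2D had AKNA (0.132), PER2 (0.146) and MRPS25 (0.147). CCND2, with its uneven controls, had TSPAN33 (0.311), ASRGL1 (0.325) and AHCY (0.358).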

How the data were processed

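RNA-seq was done on total RNA of 9 libraries, prepared with the NEBNext Ultra kit. Each deposited file has a raw read count per gene. Per the submitters' processing notes, the genome build was hg38 and the tools were STAR 2.5.2a, featureCounts 1.5.0-p1, FastQC 0.11.5 and bcl2fastq 2.17.1.14. Annotation release, strand setting and the rule for multiply aligned reads were not given in the sources used here. Of 58233 identifiers 57895 were found in GENCODE 29. Replicates differed by more than sampling noise (chi-square per degree of freedom 8.99 to 159).

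The labels gave each library's group, replicate number and passage. Tests used edgeR 4.0.16 (R 4.3.3) with filterByExpr, TMM and robust quasi-likelihood F tests over all 9 libraries (6 residual degrees of freedom), and Benjamini-Hochberg adjustment over all 15440 genes tested within each comparison, at 0.05. The SE is approximate, the size of the log2 fold change divided by the root of F. Ratios within a passage use a prior count of 2. The members and lists were chosen with earlier results of these data known. From each partner list the text names the 4 genes with the smallest adjusted p at 72 h and at least 5 CPM. Genes outside this rule are given as partners or neighbours of a member (CDK6, CDK2, MYC, MTAP, LTO1, KCNQ1OT1, CDKN2B-AS1, FADD, FGF3, FGF4). Also outside it, and added after their values were seen, are FAF1, PARP11, CTTN, ANO1, PPFIA1, GSK3B, RNF123, TIGAR, AP1M2, APOLD1 and GPR19. Some genes of the lists are not reported here. Alternatives were DESeq2 1.42.0, other scaling factors, other filters, a fit of 2 groups, the replicate block and leaving out libraries.

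By their labels, libraries with the same number come from the same passage, which pairs them. Their deviations from group means correlated at 0.11, 0.08 and 0.12 (48 h and control), 0.04, 0.11 and 0.10 (72 h and control) and -0.03, 0.49 and 0.49 (72 h and 48 h). On simulated data with 3 libraries a group, the test recovered 1.49% of 1.5-fold, 38.8% of 2-fold and 65.2% of 4-fold changes at 48 h against control among 15134 genes, 1.49%, 31.3% and 78.8% at 72 h against control among 15139, and 1.49%, 41.8% and 69.7% at 72 h against 48 h among 15152. Only 67, 67 and 66 genes were changed at these 3 sizes, while 4779 and 6152 genes were called in the real comparisons with control. The adjusted p depends on how many genes change, so these shares are not the recovery of the real tests against control.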

Additional observations from a re-analysis of the deposited data

How the results depend on the processing

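Over 19 alternatives, CDKN1A and CDKN1B kept their calls and directions at both times against control, as did CDKN1C, CDKN2D and CCND2 at 72 h. Leaving out 1 library or replicate number at a time, 765 to 6289 genes were called at 48 h, with 1 to 3 of the 10 higher and 1 to 4 lower. At 72 h 2602 to 6184 were called, with 2 to 4 of the 10 higher and 3 to 4 lower. Between 72 h and 48 h 0 genes were called in all of these, 39 with DESeq2 and 211 with no filter on low counts. The replicate block, with passages as pairs, called 5113 genes at 48 h and 6465 at 72 h, against 4779 and 6152 without it, and changed no call of the 10 genes. Of the other genes named, CDK2 and CDKN2B-AS1 passed at 72 h with it, while GSK3B and RNF123 did not both keep their 72 h calls. Values with the block are not reported here for GSK3B, RNF123, TIGAR, AP1M2, APOLD1 and GPR19. Values that changed sign when a library was left out ranged from -0.08 to 0.52 for CCND1 and, for RB1 at 48 h, from -0.18 to 0.00 against control. Between 72 h and 48 h they ranged from -0.11 to 0.16 for CDKN1A, -0.06 to 0.67 for CDKN1C, -0.06 to 0.50 for CDKN2A, -0.49 to 0.89 for CDKN2B, -0.31 to 0.18 for CCND1, -0.44 to 0.13 for CCND2 and -0.15 to 0.29 for CCND3. The cause was not tested. Of the 10 genes, CCND2, CDKN2D and CDKN1C had the fewest counts over all 9 libraries (993, 1504 and 1633).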
